A study of Saccharomyces cerevisiae with 21 samples.

Results

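The nuclear and mitochondrial ribonucleotide profiles of yeast carrying rnh203-K46W were set against those of wild type (WT), with 5 rnh203-K46W libraries and 6 WT libraries. These 11 libraries were chosen by the genotype in their titles, out of 17 ribose-seq libraries and 21 samples in the series. All were made from haploid Saccharomyces cerevisiae BY4742 cells of mating type alpha, grown to stationary phase. In rnh203-K46W the chromosomal gene of an RNase H2 subunit carries a point mutation that corresponds to one found in human Aicardi-Goutières syndrome. WT cells have the intact enzyme. The titles and the study's design give the mutated gene as RNH203, whereas the genotype field of the same samples gives rnh201-K46W, and the titles were followed. Ribose-seq captures DNA fragments that end at an embedded ribonucleotide, so each read marks 1 position on 1 strand. The labels do not state whether libraries came from separate cultures or clones, so p-values measure the spread between these libraries, which may be technical.

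DNA polymerases occasionally insert a ribonucleotide in place of a deoxyribonucleotide. RNase H2 cuts beside such a ribonucleotide and starts ribonucleotide excision repair in nuclear DNA. The enzyme has a catalytic subunit, encoded in yeast by RNH201, and accessory subunits encoded by RNH202 and RNH203, all needed for its activity. Mitochondrial DNA is not a substrate of RNase H2 in the cell, and there ribonucleotides persist even in cells with the intact enzyme. The comparison asks whether the amount or the distribution of ribonucleotides differs between the mutant and WT, in each compartment.

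The values compared were normalized enrichment factors, a ratio given for each position and strand that holds at least 1 read. The read number behind each value and the DNA depth it was divided by were recovered from the ratios. The 5 rnh203-K46W libraries held 78484, 7280, 249460, 1851267 and 572773 nuclear reads, from replicate 1 to replicate 5. In the 6 WT libraries the lowest, median and highest numbers were 882, 7952 and 38582, so 4 of the 5 rnh203-K46W libraries were deeper than every WT library. Mitochondrial reads ran from 796508 to 28807618 in rnh203-K46W and from 14540 to 1149418 in WT. Each genotype's DNA depth came from 1 DNA sample and was recovered only at coordinates with a value. Its median was 174 in rnh203-K46W and 208 in WT over nuclear coordinates, and 4097 and 2890 over mitochondrial ones. All rnh203-K46W libraries have library numbers in series 300, whereas 2 WT libraries are in series 100 and 4 in series 200, so library series and genotype cannot be told apart.

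By their mitochondrial profiles the libraries formed 2 sets, each with both genotypes. Set A held rnh203-K46W replicates 1, 2 and 4 and WT replicates 1, 3 and 6, and set B held rnh203-K46W replicates 3 and 5 and WT replicates 2, 4 and 5. Over all 17 libraries the mean Spearman correlation in 100-bp strand windows was 0.636 within a set (66 pairs) and 0.237 between sets (70 pairs), which describes how the sets were formed and tests nothing. The study used several sets of restriction enzymes, and the labels used here do not say which one each library received. WT replicate 2 stood apart from all other libraries, since 29.3% of its nuclear signal lay in the outermost 1 kb of the chromosomes. The results it moved most are also given without it.

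Mitochondrial reads were spread over more positions in rnh203-K46W than in WT. To compare libraries of unequal depth, the number of distinct strand positions expected among 500 reads drawn from each library was computed. It was 484, 492, 494, 494 and 490 in the 5 rnh203-K46W libraries. In the 6 WT libraries the lowest, median and highest values were 423, 471 and 477. No rnh203-K46W library overlapped with WT. The mean was 491 ± 3.97 (SD, n = 5) in rnh203-K46W and 462 ± 20.4 (SD, n = 6) in WT, a difference of 28.5 positions (two-sided exact permutation test, p = 0.00433, adjusted p = 0.0260 over 6 single-value comparisons). Between libraries of similar depth, rnh203-K46W replicate 2 reached 492 positions with 796508 mitochondrial reads, and WT replicate 6 reached 477 with 1149418. That is 1 library of each genotype, which cannot separate depth from genotype. Without WT replicate 2, the lowest, the difference was 20.6 (exact permutation adjusted p = 0.0476). Leaving out any 1 of the rnh203-K46W libraries raised the adjusted p of the exact permutation test to between 0.0857 and 0.114, with differences of 27.7 to 30.1.

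The same order was present in both sets, at sizes that could not pass the test. In set A the rnh203-K46W libraries had 484, 492 and 494 positions and the WT libraries 474, 472 and 477, a difference of 15.8 (exact permutation p = 0.1, the smallest p that 3 libraries against 3 allow). In set B the rnh203-K46W libraries had 494 and 490 positions and the WT libraries 423, 459 and 470, a difference of 41.6 (exact permutation p = 0.2). The deposited values carry no molecular identifiers, so in them copies of 1 molecule made in PCR and separate molecules at 1 position cannot be told apart. The part of library series, of sequencing depth and of the number of molecules captured in this difference was not tested.

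**Figure D1:**
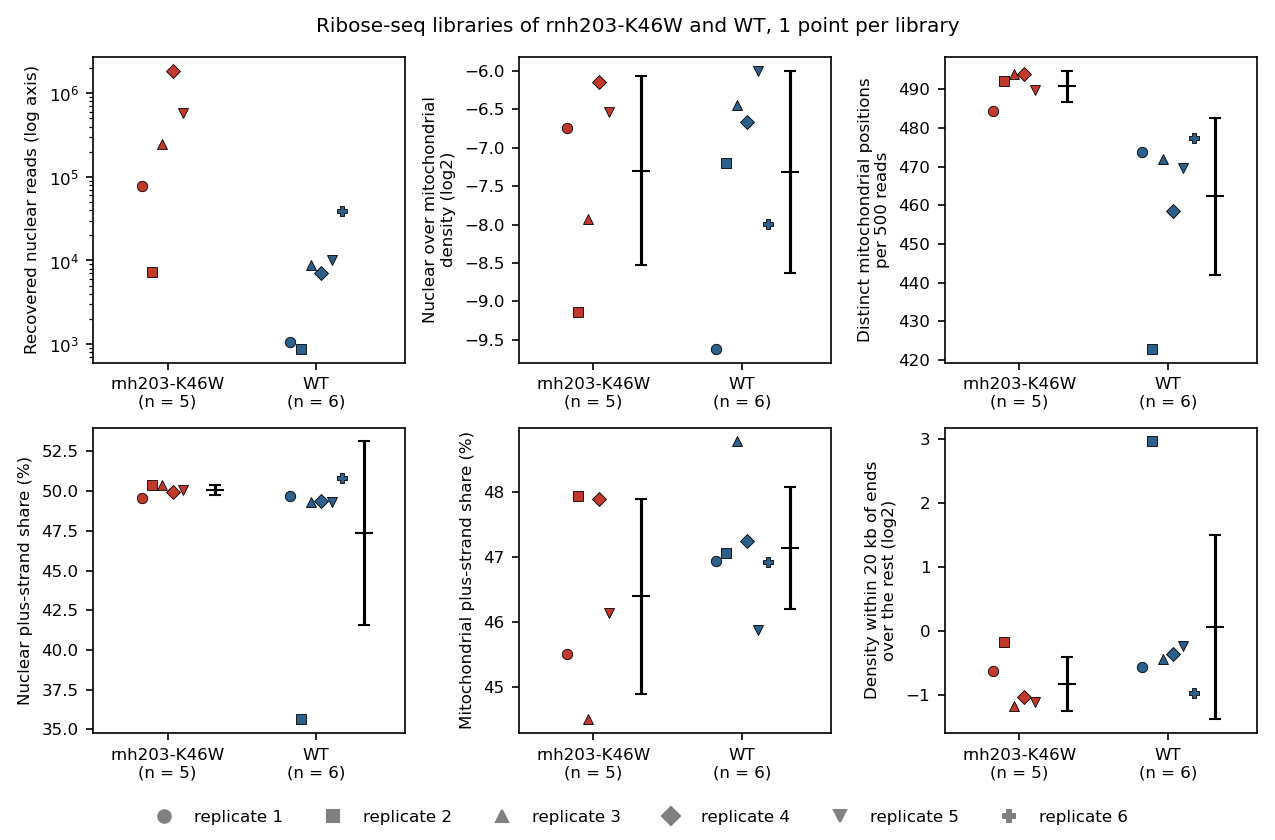
Values of the 5 rnh203-K46W libraries (red, left) and the 6 WT libraries (blue, right), 1 point per library with the replicate given by the symbol; bars show the mean and SD, except for read numbers. The panels give recovered nuclear reads on a log axis, nuclear over mitochondrial density (log2), distinct mitochondrial positions per 500 reads, the plus-strand share in percent of nuclear and of mitochondrial signal, and the log2 ratio of the density within 20 kb of chromosome ends to that of the rest. The groups are separate in the panel of mitochondrial positions, where rnh203-K46W lies between 484 and 494 and WT between 423 and 477.

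More mitochondrial positions carried a value in rnh203-K46W, the more deeply sequenced genotype. Of 171558 strand positions of the mitochondrial chromosome, 138942 (81.0%) had a value in at least 1 rnh203-K46W library and 81600 (47.6%) in at least 1 WT library. Positions detected in all libraries of a genotype numbered 20427 over the 5 rnh203-K46W libraries and 495 over the 6 WT libraries. The highest single position held 0.0232% to 0.0963% of a library's mitochondrial signal in rnh203-K46W and 0.232% to 1.08% in WT. These ranges did not overlap, and no test was made on them.

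The leading mitochondrial positions differed from library to library, and 3 positions each led 2 libraries. Position 735 of the minus strand (chrM, build sacCer2) had enrichment factors of 16.7, 25.1, 13.5, 0.0175 and 15.4 in the 5 rnh203-K46W libraries. In WT it was 0 in replicate 1, 6.16 in replicate 6 and between 88.3 and 765 in the other 4 libraries, and it was the highest of all mitochondrial positions in WT replicates 4 and 5. The 4 high WT libraries lay above all rnh203-K46W libraries and the other 2 below most of them. These 4 (WT replicates 2 to 5) held 13, 144, 627 and 308 reads there, and WT replicate 6 held 69. The 5 rnh203-K46W libraries held 303, 223, 1802, 5 and 1774, so the factors rest on unequal read numbers.

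Position 6070 of the minus strand led rnh203-K46W replicates 3 and 5, with enrichment factors of 30.3 and 38.7. The other rnh203-K46W libraries had 5.34, 17.5 and 4.97 there, and the WT libraries between 1.34 and 139. Position 16619 of the minus strand led rnh203-K46W replicates 1 and 4, with 82.6 and 19.9. It had 21.7 in replicate 2 and 0.211 and 0.425 in replicates 3 and 5, and in WT it was at 0 in 3 libraries and between 11.4 and 38.2 in the others. Position 16619 was high in the rnh203-K46W libraries of set A and low in those of set B, and position 6070 was highest in those of set B. In WT, position 6070 was at 94.1, 139 and 118 in set B. It was at 9.74, 1.34 (from 1 read) and 9.26 in WT of set A. Within set B the WT values there lay above both rnh203-K46W values, and within set A the genotypes overlapped. The sets were formed on mitochondrial profiles, so a split by set is partly built in and tests nothing. Over all 11 libraries the genotypes overlapped at 6070 and 16619.

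The distribution of ribonucleotides along the mitochondrial chromosome did not differ between the genotypes past the threshold in 1-kb windows. None of 172 strand windows (0%) passed an adjusted p of 0.05 by limma, and 9 (5.23%) had an unadjusted p under 0.05. An exact permutation test of each window also called 0. In 1 window (0.581%) all rnh203-K46W libraries were higher than all WT libraries, and in 0 windows (0%) all were lower. It spans 59001 to 60000 on the minus strand, and its level, over a mean of 1, was 2.69, 2.004, 2.59, 2.39 and 3.15 in the rnh203-K46W libraries. WT levels ran from 0.229 to 1.58, with a median of 1.28. The log2 difference was 1.31 ± 0.45 (SE, limma adjusted p = 0.622).

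The other 4 windows of lowest p had overlapping libraries. The window from 35001 to 36000 on the plus strand was lower on average in rnh203-K46W, with a mean level of 0.512 ± 0.256 (SD, n = 5) against 1.45 ± 0.848 (SD, n = 6) in WT. The plus-strand windows that start at 41001, 26001 and 79001 had mean levels of 1.95, 1.68 and 1.51 in rnh203-K46W and 0.937, 0.757 and 0.758 in WT. The adjusted p of all 4 was 0.622 by limma, as for the lowest of all windows.

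Wider windows gave 1 call at the start of the numbered mitochondrial sequence. The 5-kb width was an alternative to the 1-kb windows. At this width 7 of the 34 strand windows had an unadjusted limma p under 0.05, and no exact permutation test was made. Of 34 strand windows of 5 kb, 1 passed the threshold, from 1 to 5000 on the minus strand, and it was lower in rnh203-K46W. Its level was 0.909, 1.24, 1.19, 0.471 and 0.636 in the 5 rnh203-K46W libraries. WT levels ran from 1.085 to 3.92, with a median of 2.22, and the groups overlapped only through WT replicates 1 and 6, at 1.22 and 1.085. The log2 difference was -1.18 ± 0.29 (SE, limma adjusted p = 0.00933). Its first 1 kb, which holds position 735, had levels of 1.53, 2.16, 1.35, 0.297 and 1.26 in rnh203-K46W. In WT the lowest, median and highest were 0.249, 5.73 and 16.1. The log2 difference of this 1-kb window was -1.70 ± 0.75 (SE, limma adjusted p = 0.622).

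Nuclear strand shares were close to even in all libraries but WT replicate 2. The mitochondrial plus strand held less signal than the minus strand in every library of both genotypes. The plus strand held 49.6%, 50.4%, 50.4%, 49.97% and 50.1% of the nuclear signal in the rnh203-K46W libraries. In WT the lowest, median and highest shares were 35.7%, 49.4% and 50.8%, with the lowest in WT replicate 2 and the next at 49.3%. The difference of 2.71 percentage points had p = 0.383 in the exact permutation test (adjusted p = 0.575), and it was 0.369 without WT replicate 2. Without WT replicate 6, the highest, it was 3.40 (exact permutation adjusted p = 0.0476). In mitochondrial DNA the plus strand held 45.5%, 47.9%, 44.5%, 47.9% and 46.1% in rnh203-K46W. WT shares ran from 45.9% to 48.8%, with a median of 47.0%, and the groups overlapped (difference -0.74 percentage points, exact permutation p = 0.351, adjusted p = 0.575). With each position counted once, whatever its reads, the mitochondrial plus-strand share ran from 49.5% to 50.4% in rnh203-K46W. In WT it then ran from 46.3% to 50.9%, so the lower share on the plus strand did not hold in every library.

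The amount of ribonucleotides in nuclear DNA relative to mitochondrial DNA varied as widely within each genotype as between them. Nuclear over mitochondrial density, on the log2 scale, was -6.75, -9.14, -7.93, -6.14 and -6.53 in the rnh203-K46W libraries. WT values ran from -9.62 to -6.00, with a median of -6.93. The means differed by 0.02 with SDs of 1.23 (n = 5) and 1.32 (n = 6) in rnh203-K46W and WT (exact permutation p = 0.985, adjusted p = 0.985). A p of this size does not show that the genotypes have equal amounts. The difference was 0.68 within set A, -0.61 within set B and -0.52 without libraries under 5000 nuclear reads. With each position counted once it was 2.98 (exact permutation p = 0.0541, adjusted p = 0.162), where a position with many reads weighs as much as one with 1 read. That ratio counts positions without division by DNA depth. Nuclear positions numbered 6322 to 1206338 in rnh203-K46W and 639 to 36638 in WT. Mitochondrial positions numbered 53824 to 103746 and 5025 to 61531. The part of sequencing depth in the 2.98 was not tested. The difference was -0.89 for reads not divided by DNA depth, where mitochondrial over nuclear DNA depth was 23.6 in the rnh203-K46W sample and 13.9 in the WT sample.

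Nuclear reads were spread over nearly as many positions as reads in both genotypes. Among 500 nuclear reads, 489, 477, 498, 498 and 496 distinct positions were expected in the rnh203-K46W libraries. WT values ran from 374, in replicate 2, to 499, with a median of 497. The difference of 16.03 became -4.37 without WT replicate 2, and neither passed the test (exact permutation p = 0.892 and p = 0.405). Of nuclear positions with a value in rnh203-K46W, 94.0% were found in 1 library only, and 78 positions were found in all 5. In WT 99.4% were found in 1 library only, 6 positions in 3 libraries and none in more than 3. The genotypes differed in depth, and these counts were not tested.

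Across chromosomes no difference in density passed the threshold. The lowest p-values were on XII and XVI, where the mean was higher in rnh203-K46W, and on VI, where it was lower. Chromosome density is the summed enrichment factor per base over the nuclear mean. None of 16 chromosomes (0%) passed an adjusted p of 0.05 by limma, 3 (18.8%) had an unadjusted p under 0.05, and an exact permutation test of each chromosome called 0. On chromosome XVI the density was 0.978, 1.10, 1.04, 1.05 and 1.04 in the rnh203-K46W libraries. WT densities ran from 0.756 to 0.950, with a median of 0.913. It was the only chromosome of 16 (6.25%) whose rnh203-K46W libraries were all higher than all WT libraries, and on 0 (0%) they were all lower (log2 difference 0.25 ± 0.08 SE, limma adjusted p = 0.0622).

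Chromosome XII carries the ribosomal DNA repeats. Its density was 0.996, 1.10, 1.13, 1.10 and 1.13 in the rnh203-K46W libraries. WT densities ran from 0.829 to 1.02, with a median of 0.944, and rnh203-K46W replicate 1 overlapped with WT. On the log2 scale the difference was 0.23 ± 0.07 (SE, limma adjusted p = 0.0622). Chromosome VI had densities of 1.03, 0.813, 0.674, 0.709 and 0.647 in rnh203-K46W. In WT the lowest, median and highest were 0.696, 1.14 and 1.33, with WT replicate 2 the lowest (log2 difference -0.49 ± 0.17 SE, limma adjusted p = 0.0898).

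On chromosome I, the shortest, rnh203-K46W had densities of 0.961, 0.602, 0.611, 0.597 and 0.622. In WT the lowest, median and highest densities were 0.730, 1.23 and 14.2. Only rnh203-K46W replicate 1 lay within the WT range, and the value of 14.2 belonged to WT replicate 2. The log2 difference was -1.35 ± 0.65 (SE, limma adjusted p = 0.200), and -0.74 without WT replicate 2 (limma adjusted p = 0.0374). On chromosome III rnh203-K46W replicate 1 had 1.38, above all WT libraries, and the other rnh203-K46W libraries lay between 0.717 and 0.940 (log2 difference -0.15). The other 11 chromosomes had log2 differences between -0.11, on IX, and 0.24, on IV.

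The call depended on single libraries. Without WT replicate 2, 5 chromosomes passed the threshold by limma, with I, VI and IX lower and XII and XVI higher in rnh203-K46W. Without rnh203-K46W replicate 1, 3 did, with XII and XVI higher and VI lower.

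The relation of density to chromosome length was then computed for each library, a measure chosen after the chromosome values were seen. It is the slope of log2 density on log2 chromosome length over the 16 chromosomes, where a positive slope means higher density on longer chromosomes. The slope was -0.06, 0.25, 0.31, 0.32 and 0.33 in the rnh203-K46W libraries. WT slopes ran from -0.63 to 0.09, with a median of -0.14. Of the 5 rnh203-K46W libraries 4 lay above all WT libraries, and replicate 1 lay within the WT range. The means were 0.23 ± 0.16 (SD, n = 5) in rnh203-K46W and -0.18 ± 0.26 (SD, n = 6) in WT, a difference of 0.41 (exact permutation p = 0.0173, not adjusted and chosen after seeing the values). Without any 1 library the difference ran from 0.32 to 0.48. Within set A it was 0.16 (exact permutation p = 0.3) and within set B 0.69 (exact permutation p = 0.1).

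DNA depth was higher on shorter chromosomes in both DNA samples, and more steeply so in that of rnh203-K46W. Depth was known only at coordinates with a ribose-seq value, which differ between the genotypes (28493 on chromosome I in rnh203-K46W and 1497 in WT). Median depth on chromosome I was 1.36 times the nuclear median in the rnh203-K46W sample and 1.12 times in the WT sample. On chromosome VI it was 1.32 and 1.12 times, and on chromosome XII 0.891 and 0.933 times, in rnh203-K46W and WT. The slope of log2 depth on log2 length was -0.21 in rnh203-K46W and -0.10 in WT. With reads not divided by DNA depth, the mean slope of the libraries was 0.02 in rnh203-K46W and -0.27 in WT, and the difference was 0.28 (exact permutation p = 0.0519). With these undivided reads the mean slope in rnh203-K46W was near 0, and the difference between the genotypes was smaller and missed the threshold. With each position counted once, also without that division, the difference was 0.21 (exact permutation p = 0.0368, not adjusted). Without the 10 highest positions of each library, with the division kept, it was 0.37 (exact permutation p = 0.0130, not adjusted). With 1 DNA sample per genotype, the spread of the DNA depth itself is unknown.

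**Figure D2:**
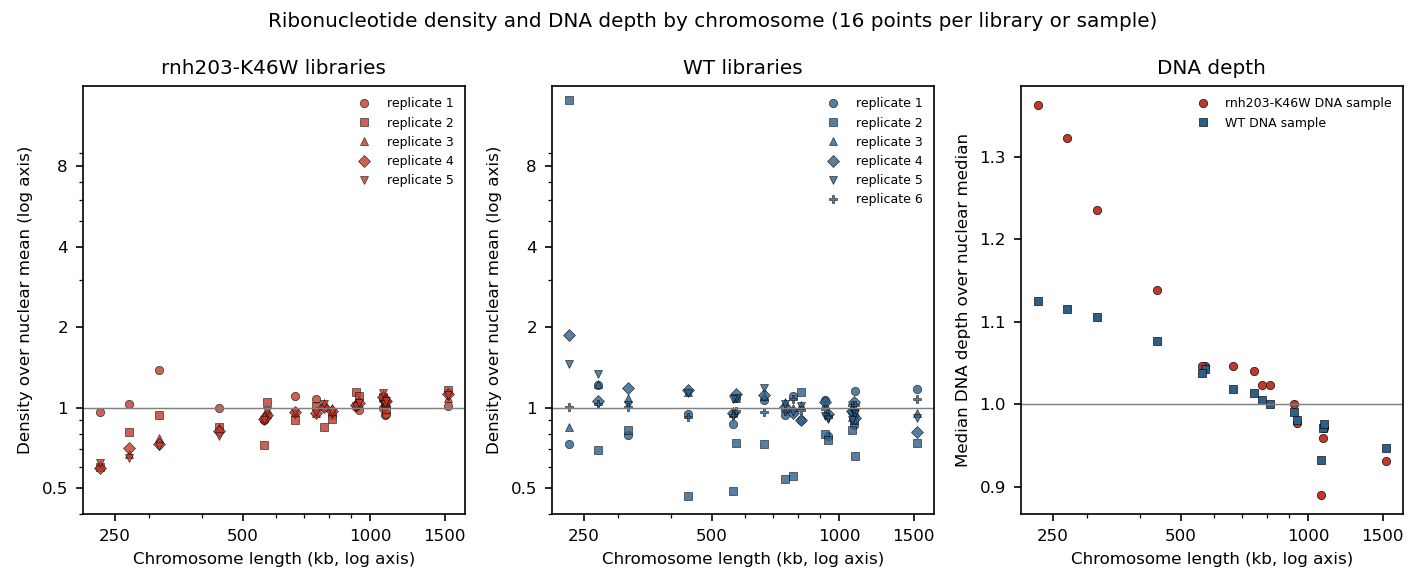
Density of ribonucleotides on each of 16 nuclear chromosomes over the nuclear mean (log axis) against chromosome length (kb, log axis), in the 5 rnh203-K46W libraries (left panel, red) and the 6 WT libraries (middle panel, blue), and median DNA depth over the nuclear median in the 1 DNA sample of each genotype (right panel). On chromosome I, the point farthest left, 4 of the rnh203-K46W libraries lie between 0.597 and 0.622, WT replicate 2 lies at 14.2, and DNA depth is 1.36 in rnh203-K46W and 1.12 in WT.

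In the outermost 10 kb of the chromosomes the ribonucleotide density was below the nuclear mean in every rnh203-K46W library. It was 0.426, 0.431, 0.353, 0.291 and 0.346 of the nuclear mean in the rnh203-K46W libraries. WT values ran from 0.425 to 11.2, with a median of 0.766. In 3 of the 5 rnh203-K46W libraries the value was lower than in any WT library, and in the other 2 it was just above that of WT replicate 6. Between 10 and 20 kb the values ran from 0.567 to 1.36 in rnh203-K46W, with replicate 2 the highest and a median of 0.714, and from 0.246 to 0.890 in WT, with a median of 0.707. There the groups overlapped. Beyond 100 kb the median was 1.08 in rnh203-K46W and 0.991 in WT.

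The planned measure was the log2 ratio of density within 20 kb of the ends to that of the rest of the nuclear genome. It was -0.61, -0.17, -1.16, -1.03 and -1.11 in the rnh203-K46W libraries. WT values ran from -0.97 to 2.97, with a median of -0.40, and the groups overlapped. The difference of -0.89 did not pass the exact permutation test (p = 0.169, adjusted p = 0.506). It was -0.31 without WT replicate 2 and -0.78 without the 10 highest positions of each library (exact permutation adjusted p = 0.0455, in a range of 0.0455 to 1 over the alternatives). Within 10 kb of the ends it was -1.62 (exact permutation p = 0.0260, adjusted p = 0.0779). Without WT replicate 2 as well, a setting added after seeing the values, it was -0.86 within 10 kb (exact permutation p = 0.0238, adjusted p = 0.0714) and -0.45 without the 10 highest positions (exact permutation p = 0.0159, adjusted p = 0.0476). Within set A, which does not hold WT replicate 2, the planned measure differed by 0.05, and within set B, which does, by -1.93 (exact permutation p = 0.3). DNA depth in the outermost 10 kb was 1.33 times the nuclear median in the rnh203-K46W sample and 1.11 times in the WT sample. These depths cover only coordinates with a ribose-seq value, 21271 in rnh203-K46W and 967 in WT. With reads not divided by depth, the planned 20-kb difference was -0.63 (exact permutation p = 0.478), and -0.07 without WT replicate 2 as well (exact permutation p = 0.778). In the outermost 10 kb alone, levels from undivided reads ran from 0.389 to 0.580 in rnh203-K46W, with a median of 0.464. In WT they ran from 0.476 to 11.2, with a median of 0.843, and no test was made on these levels.

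A large share of the nuclear signal of WT replicate 2 lay at the chromosome tips, mostly on chromosome I. The outermost 1 kb of all chromosomes makes up 0.266% of the nuclear length. It held 0.130%, 0.524%, 0.182%, 0.0375% and 0.0963% of the nuclear signal in the rnh203-K46W libraries, and 29.3% in WT replicate 2, where 256 of 882 reads fell there. In that library 90.2% of the signal of the tips was on chromosome I, and position 41 of the minus strand alone held 52 reads. WT replicates 4 and 5 had 1.23% and 1.33% in the tips, above all rnh203-K46W libraries, whereas WT replicates 1, 3 and 6 had 0%, 0.205% and 0.155%. The 0 of WT replicate 1 comes from 1058 nuclear reads and says little. The part of read placement in repeated end sequences was not tested.

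**Figure D3:**
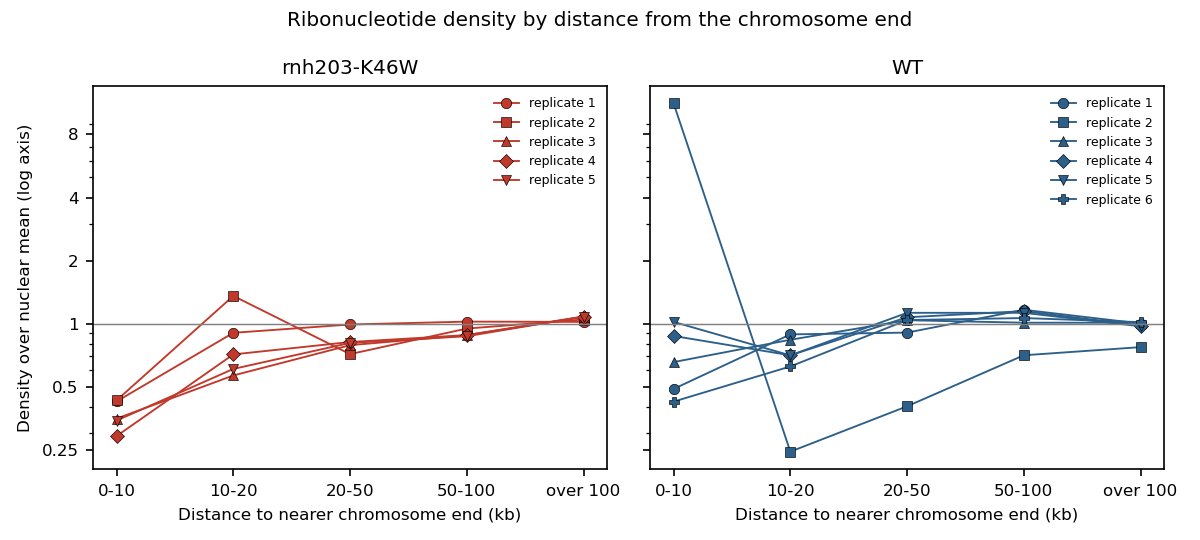
Density of ribonucleotides over the nuclear mean (log axis) in 5 classes of distance to the nearer chromosome end (kb), 1 line per library, for rnh203-K46W (left, red, n = 5) and WT (right, blue, n = 6). In the outermost 10 kb all rnh203-K46W lines lie between 0.291 and 0.431, WT replicate 2 lies at 11.2, and the other WT lines lie between 0.425 and 1.02.

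In 50-kb windows of the nuclear genome no difference passed the threshold. None of 240 windows (0%) had an adjusted p under 0.05 by limma, 27 (11.2%) had an unadjusted p under 0.05, and an exact permutation test of each window called 0. The median log2 difference over all windows was 0.15, with 163 windows higher and 77 lower on average in rnh203-K46W, so single windows are read against that shift. All rnh203-K46W libraries were higher than all WT libraries in 3 windows (1.25%) and lower in 5 (2.08%). Library weights in limma raised the count of calls to 45, with 27 higher and 18 lower.

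The window with the lowest p lies on chromosome XII, from 600001 to 650000. Its level over the nuclear mean was 1.16, 1.30, 1.598, 1.35 and 1.45 in the rnh203-K46W libraries. WT levels ran from 0.464 to 1.06, with a median of 0.678, below every rnh203-K46W library. On the log2 scale the difference was 0.91 ± 0.20 (SE, limma adjusted p = 0.126). It was the 1 window past the threshold without WT replicate 6 (limma adjusted p = 0.0306), and its adjusted p over all alternatives ran from 0.00181 to 0.669.

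On chromosome XIII the window from 50001 to 100000 had levels of 0.987, 0.705, 0.887, 0.904 and 0.833 in rnh203-K46W. WT levels ran from 0.988 to 1.87, with a median of 1.44, and the groups did not overlap, the nearest pair at 0.987 and 0.988. The log2 difference was -0.68 ± 0.16 (SE, limma adjusted p = 0.126), and this window passed the threshold without WT replicate 3 (limma adjusted p = 0.0425). In the next 3 windows by p the libraries overlapped. They lie on chromosome XII from 100001 to 150000 (mean level 1.13 in rnh203-K46W and 1.65 in WT), on chromosome IV from 350001 to 400000 (1.59 and 0.964) and on chromosome XII from 200001 to 250000 (1.34 and 0.648).

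The window from 450001 to 500000 on chromosome XII holds the ribosomal DNA repeats, which encode the ribosomal RNAs and are present in many copies but drawn only in part in the reference. Its level was 0.277, 0.450, 0.287, 0.403 and 0.324 in the rnh203-K46W libraries. In WT it was 0 in replicates 1 and 2, which hold 1058 and 882 nuclear reads, and 0.208, 0.218, 0.322 and 0.290 in the others. All levels were below the nuclear mean, and the libraries overlapped. The log2 difference was 0.93 ± 0.46 (SE, limma adjusted p = 0.450), and 0.32 without the libraries under 5000 nuclear reads (limma adjusted p = 0.347).

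The balance between strands was compared along the chromosomes, to ask whether the strand that holds the ribonucleotides differs. The balance is the log2 ratio of plus-strand to minus-strand signal. Replication origins were not used, so a balance over 50 kb or a whole chromosome does not follow the strand of each replicative polymerase. Over whole chromosomes 0 of 16 (0%) passed the threshold by limma, 1 (6.25%) had an unadjusted p under 0.05, and exact permutation called 0. That chromosome was XII, with a mean balance of 0.03 in rnh203-K46W and -0.17 in WT (limma adjusted p = 0.405). In 50-kb windows 0 of 240 (0%) passed by limma, 12 (5%) had an unadjusted p under 0.05, and exact permutation called 0. All rnh203-K46W libraries were higher than all WT libraries in 1 window (0.417%) and lower in 4 (1.67%), where a library with no read counts as 0.

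The right end of chromosome X, from 700001 to 745742, had the lowest p. The balance there was -0.96, -2.005, -0.05, -1.13 and -0.11 in the rnh203-K46W libraries, so each had more signal on the minus strand. WT replicate 2 had no read in this window, so its balance of 0 is no measurement. The other 5 WT libraries ran from 0.55 to 1.59, all above rnh203-K46W, with 3 reads on the plus and 1 on the minus strand in WT replicate 1 and 86 and 27 in WT replicate 6, the deepest there. With that 0 included, the difference was -1.80 ± 0.41 (SE, limma adjusted p = 0.148) on the log2 scale. It passed the threshold without WT replicate 2 (difference -1.98, limma adjusted p = 0.0344) and with all 17 libraries in the fit (limma adjusted p = 0.0417), and over all alternatives the adjusted p ran from 0.00127 to 0.823. With each position counted once it was -0.62 (limma adjusted p = 0.744). In rnh203-K46W replicate 4 the minus strand held 5472 reads at 1562 positions there and the plus strand 2164 reads at 1537 positions. Position 726182 of the minus strand had 2636 of these reads and the highest nuclear enrichment factor of that library.

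In the window from 400001 to 450000 on chromosome X the mean balance was -0.09 in rnh203-K46W and 0.85 in WT, with no overlap (limma adjusted p = 0.619). WT replicate 1 had 3 reads on the plus and 1 on the minus strand there, and WT replicate 2 had 1 read on the plus strand. The windows of chromosome XII from 750001, of chromosome XIV from 650001 and of chromosome XVI from 750001 had mean balances of 0.08, 0.50 and 0.17 in rnh203-K46W and -1.15, -1.01 and -1.05 in WT. Their libraries overlapped, and WT replicate 2 had the lowest value in each of the 3, between -3.25 and -2.71. These lowest values come from 0 reads on the plus strand and 2, 3 and 2 reads on the minus strand. WT replicate 1 had 1 read on the plus strand in each, and 3, 3 and 2 on the minus strand. The WT medians were -0.88, -0.80 and -0.81. The median SD of a window's balance was 0.27 in rnh203-K46W and 0.91 in WT.

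**Figure D4:**
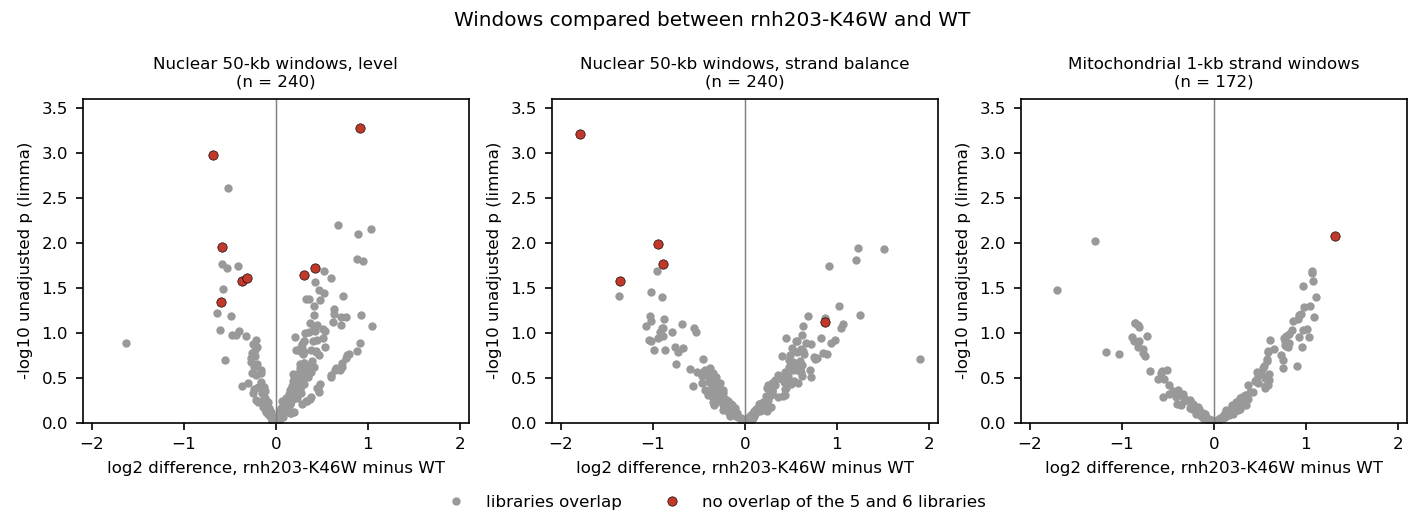
Log2 difference of rnh203-K46W minus WT (horizontal axis) against -log10 of the unadjusted limma p (vertical axis) for 240 nuclear 50-kb windows by level, the same 240 windows by strand balance, and 172 mitochondrial 1-kb strand windows; red points are windows in which the 5 and 6 libraries do not overlap. The highest points are chromosome XII 600001 to 650000 at 0.91 in the left panel and the right end of chromosome X at -1.80 in the middle panel, and no window of the 3 panels passed the adjusted threshold.

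Pairwise correlations of nuclear profiles were higher among rnh203-K46W libraries than among WT libraries. Over 240 windows of 50 kb the median Spearman correlation was 0.442 for the 10 pairs of rnh203-K46W libraries, 0.183 for the 15 WT pairs and 0.159 for the 30 pairs of 1 library of each genotype. The 3 deepest rnh203-K46W libraries, replicates 3 to 5, had a median of 0.788. Depth was also higher in rnh203-K46W, and pairs of a genotype also share the DNA sample that their values were divided by. In 1-kb strand windows of mitochondrial DNA the median was 0.499 within rnh203-K46W, 0.373 within WT and 0.431 between the genotypes. Over the same 11 libraries it was 0.609 where both libraries were of the same set and 0.342 where they were not, the sets having been formed on these profiles at a finer width.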

How the data were processed

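Ribose-seq was compared in 5 rnh203-K46W and 6 WT libraries of yeast. The deposited values are a ratio, the authors' normalized enrichment factor for each position and strand. Per the submitters' processing notes, reads were trimmed with cutadapt and the build is sacCer2, and per the labels' design text they were aligned and filtered with Ribose-Map and custom scripts. How the ratio was normalized is not given in the sources used here and was worked out from the values. In each library a value was a constant times the read number divided by a DNA depth shared by the libraries of the genotype, and nuclear and mitochondrial values were scaled apart, each to its own length. The table held 8216036 rows for 6633594 positions. Rows were merged by chromosome, end and strand, and 1065821 positions filled several rows. At least 99.9976% of coordinates gave 1 common depth in the rnh203-K46W libraries and 100% in WT. A coordinate with 1 value from 1 read meets this in advance, so over nuclear coordinates the share says little. Of nuclear positions with a value, 94.0% in rnh203-K46W and 99.4% in WT had it in 1 library only. Counting intervals would cover counting error only, since the deposited values carry no molecular identifiers.

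Windows and chromosomes were tested with limma 3.58.1 in R 4.3.3 on log2 values of the 11 libraries without covariates (trend for window levels). A pseudocount of 0.1 was added to window levels and strand values, so folds of low windows are understated. Windows had a mean of at least 0.1 and at least 50% of their full width. An adjusted p (Benjamini-Hochberg) under 0.05 counted as a call. Single values per library were compared by two-sided exact permutation tests over 462 splits, adjusted over 6 tests; the smallest possible p is 0.00216. Scripts were tested on simulated data. Library sets came from average-linkage clustering of mitochondrial profiles. All 16 chromosomes were described, and in each window comparison the 5 windows of lowest p, since none passed, plus the ribosomal DNA window. Windows called only under an alternative, single leading positions, the terminal 1 kb, the length slope and the chromosome-end alternatives combined with leaving out WT replicate 2 were added after their values were seen. Members, windows and tests were chosen with earlier results of these data known. Replicate numbers follow accession order and pair no libraries. The nucleotide identity of the ribonucleotides and gene annotation were not analysed here.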

Additional observations from a re-analysis of the deposited data

Results flagged for a closer look

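Values are listed here where the highest or lowest library of a genotype was separated from its nearest neighbour by more than Dixon's 95% critical share of the range. In 78 groups examined, 17 values met this, and 9 of them belong to WT replicate 2. Chance gives about 1 in 20 groups. No explanation was tested.

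WT replicate 2, with 882 nuclear reads, stood apart in its nuclear plus-strand share (35.7%), its log2 chromosome-end density (2.97), its distinct positions per 500 nuclear reads (374) and per 500 mitochondrial reads (423), and its density on chromosomes I (14.2), VIII (0.487), IX (0.466), X (0.543) and XIV (0.555). Among rnh203-K46W libraries, replicate 1 stood apart in the chromosome-length slope (-0.0576) and in the density on chromosomes I (0.961), VII (0.942) and XII (0.996). Replicate 2, the shallowest of that genotype, stood apart in the density on chromosomes VIII (0.725), XIII (1.14) and XIV (0.848). WT replicate 3 stood apart in the window of chromosome XII from 200001 to 250000, with a level of 1.40.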

How the results depend on the processing

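No paired analysis was possible because replicate numbers follow accession order and carry no pairing. Over all alternatives, including those added after seeing the data, 204 of the values that answer a comparison kept their side of the threshold, among them many counts of 0, which have no direction. A further 17 counts moved, 13 values turned sign, 10 no longer passed and 3 newly passed. Of values of single chromosomes and windows, 688 kept direction and side, 18 turned sign and 40 newly passed. Where a result moved, the cause was not tested. Shallow WT libraries limit all nuclear comparisons, and within sets the exact permutation test of a single value, with 3 libraries against 3 or 2 against 3, cannot pass the threshold.

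Chromosomes past the threshold by limma numbered 0, against 6 without libraries under 5000 nuclear reads, 1 without the 10 highest positions, 9 with library weights, 2 with all 17 libraries in the fit, and 0 to 5 when leaving out 1 library. Nuclear windows numbered 0, against 3, 45 and 2 without shallow libraries, with weights and with 17 libraries, and 0 to 1 without 1 library. Strand-balance windows numbered 0, against 1 under each of these 3, and 0 to 1 without 1 library. Mitochondrial windows numbered 0, against 1 with weights and 1 in 5-kb windows.

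With positions counted once, the mitochondrial plus-strand difference turned to 0.852. The chromosome-end difference turned to 0.0509 in set A, passed at -0.780 without the 10 highest positions and at -0.454 when WT replicate 2 was left out too, and ran from -1.10 to -0.31 without 1 library. The nuclear to mitochondrial difference turned to -0.612 in set B, -0.523 without shallow libraries and -0.890 without division by depth, was 0.675 in set A and 2.98 with positions counted once, and ran from -0.440 to 0.480 without 1 library. The difference in nuclear positions turned to -7.08 in set A and -6.46 without shallow libraries, and ran from -4.37 to 20.8. That in nuclear plus-strand share ran from 0.369 to 3.40. That in mitochondrial positions missed the threshold at 15.8 (set A) and 41.6 (set B), and ran from 20.6 to 31.5. The slope difference missed it at 0.156 (set A), 0.692 (set B) and 0.285 without division by depth.

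Small chromosome differences turned sign. Counted once, II was at 0.0356 and XIII at -0.0357, and without the 10 highest positions they were at 0.0136 and -0.0297, with VIII at -0.00602. In set A, III was at 0.0448, VIII at -0.133, XIV at -0.152 and XV at -0.0699. Without shallow libraries VIII was at -0.177, X at -0.0326 and XIV at -0.0165. With weights VIII was at -0.123 and X at -0.0433. Without 1 library VIII ran from -0.143 to 0.0866, X from -0.0114 to 0.179 and XIV from -0.0455 to 0.155.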
